A study of Mus musculus with 6 samples.

Results

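The INK4 genes Cdkn2a, Cdkn2b, Cdkn2c and Cdkn2d were followed across the cell types of the aged mouse lung. The members were the rows whose gene symbol was 1 of these 4, out of 31054 genes in the deposited matrices, and all 4 were found. Single cells were sequenced from 6 lung samples of male C57BL/6 mice of 21 months, 3 in each group, with 1 droplet library (10x Genomics, 3' end counting) per sample. The libraries labelled p16-DTR came from mice with the genotype p16-CreERT2/R26-LSL-DTR. The controls had the genotype p16-CreERT2. In the first genotype tamoxifen activates a Cre recombinase under the p16 promoter, which opens a stop cassette at Rosa26 and switches on a diphtheria toxin receptor (DTR). Control mice carry the recombinase but no receptor gene. Tamoxifen (TAM) was given to both groups for 5 days and, 2 weeks later, diphtheria toxin (DT) for 5 days, followed by 2 weeks without treatment. A library was made from 20000 cells without and 9000 cells with the leukocyte marker CD45, so the balance of immune and other cells was set by the sort. The question put by the series was what follows from removing cells with high p16, and Cdkn2a, which encodes p16, is therefore the first check of the labels. A lower Cdkn2a level under the p16-DTR label was not seen: the 3 libraries with that label were above the controls over all cells, a difference that edgeR did not call. Groups are therefore named by their labels, and every direction below rests on those labels. The receptor allele goes with the group in all 6 libraries, so its presence and any loss of cells cannot be told apart.

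INK4 proteins bind the cyclin-dependent kinases CDK4 and CDK6 and keep them from pairing with D cyclins, which leaves the retinoblastoma protein (RB) able to hold back E2F factors and entry into S phase. Cdkn2a encodes p16INK4a and, from a separate first exon read in another frame, ARF (p19ARF in the mouse), which frees p53 by binding MDM2. Cdkn2b encodes p15INK4b, which is known to respond to TGF-beta. Cdkn2c (p18INK4c) and Cdkn2d (p19INK4d) are better known from development, blood cells and the cell cycle. Cdkn2a is the member most used as a marker of senescent cells.

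Cdkn2a and Cdkn2b are neighbours on mouse chromosome 4. In the GENCODE M21 annotation of GRCm38, Cdkn2a (ENSMUSG00000044303) spans chr4:89274471-89294653 and Cdkn2b (ENSMUSG00000073802) spans chr4:89306299-89311039, both on the minus strand and 11646 bases apart. Cdkn2c (ENSMUSG00000028551) lies on the same chromosome at chr4:109660876-109667189, and Cdkn2d (ENSMUSG00000096472) at chr9:21288410-21291407, both on the minus strand. The transcripts Cdkn2a-201 and Cdkn2a-202 start at 89282192 and 89294653 and end at 89274471 and 89274541, so their ends lie within the same last exon region. Counting from the 3' end does not separate p16INK4a from ARF, and Cdkn2a below means both. Both groups carry the p16-CreERT2 allele, and whether transcripts of that allele add to the Cdkn2a count was not tested.

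The stretches just upstream of the 3 starts at the Cdkn2a and Cdkn2b locus are shown. Cdkn2a and Cdkn2b shared a cell type in the controls, and only Cdkn2a had calls between the groups. They are RefSeq promoter sequences on GRCm38.p6, minus strand, 5′ to 3′, ending next to the first annotated start, and capitals mark a motif match. The ARF start has chr4:89294654-89294869, the p16INK4a start chr4:89282193-89282442, inside the first intron of the longer transcript, and Cdkn2b chr4:89311040-89311282.
Cdkn2a, ARF start: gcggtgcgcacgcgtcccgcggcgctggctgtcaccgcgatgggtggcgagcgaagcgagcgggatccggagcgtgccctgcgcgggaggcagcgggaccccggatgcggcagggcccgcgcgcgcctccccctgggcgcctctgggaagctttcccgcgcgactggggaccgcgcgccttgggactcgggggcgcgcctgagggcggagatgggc
Cdkn2a, p16INK4a start: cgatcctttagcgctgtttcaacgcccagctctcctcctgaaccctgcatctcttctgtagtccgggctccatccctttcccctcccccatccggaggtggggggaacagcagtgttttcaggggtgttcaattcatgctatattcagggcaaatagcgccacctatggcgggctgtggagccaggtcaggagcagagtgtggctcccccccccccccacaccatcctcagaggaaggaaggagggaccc
Cdkn2b: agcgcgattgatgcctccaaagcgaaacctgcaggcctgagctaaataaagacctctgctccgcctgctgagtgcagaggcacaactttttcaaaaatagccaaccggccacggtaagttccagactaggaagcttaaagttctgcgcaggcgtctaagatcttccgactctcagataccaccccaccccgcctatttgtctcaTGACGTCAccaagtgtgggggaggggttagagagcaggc
The base composition differed, with 78.7% G or C before the ARF start, 60.0% before the p16INK4a start and 53.5% before Cdkn2b. Both strands of the 250 bases before each RefSeq start were searched for the E2F site TTTGGCGC, the GC box GGGGCGGGG, the TATA box as TATAAA, the CRE as TGACGTCA, the AP-1 site TGACTCA and the CCAAT box. Only Cdkn2b held a match among these 3 windows, a CRE at position -46 from its RefSeq start. Of 32851 mouse promoter windows of this length 1.55% hold that motif. The CCAAT box is in 33.8%, the TATA box in 12.4%, the GC box in 10.4%, the AP-1 site in 4.46% and the E2F site in 0.417%. A match to some motif of this list is therefore common and does not set Cdkn2b apart. A match is a string of letters and not a measured binding site.

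The libraries held 13482 to 17332 barcodes and 254200305 to 344421685 UMIs (unique molecular identifiers, each counted transcript molecule). After filtering and removal of predicted doublets 85386 cells remained, 42366 labelled p16-DTR and 43020 control. Cells were sorted into classes by the marker genes of their cluster and of each cell, and 23 classes with at least 50 cells in every library were compared. Libraries shared 59 to 94 barcodes per pair. Control replicate 3 held 472 platelet or megakaryocyte cells against 21 to 38 in each other library, a class not compared here. Levels are in UPM, a gene's UMIs per 1000000 UMIs of the same cells, 3' counts that do not depend on gene length. The retained cells held 7599 UMIs of Cdkn2a, 12821 of Cdkn2b, 55957 of Cdkn2c and 57538 of Cdkn2d, so Cdkn2a was the least and Cdkn2d the most deeply counted member.

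In the control libraries the 4 members were highest in 4 different cell classes. Cdkn2a was led by aerocytes, the large alveolar capillary cells specialised for gas exchange, and Cdkn2b by alveolar type 1 cells, the flat cells on the air side of the same barrier, followed by aerocytes. Cdkn2c was led by alveolar fibroblasts and Cdkn2d by neutrophils. Classes were defined by clustering the same cells without these 4 genes, so these differences between classes are given as levels with no test.

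Cdkn2a in control aerocytes stood at 24.6, 38.7 and 44.0 UPM in replicates 1 to 3, a mean of 35.8 ± 10.1 (SD, n = 3). The next class, interstitial macrophages, had 3.35 ± 1.48 UPM from only 18 UMIs, and the lowest aerocyte library lay above the highest library of any other class. Below them CD4 T cells (2.57), type 2 dendritic cells (2.38), CD8 T cells (2.11) and gamma-delta T cells (1.79) overlapped and cannot be ordered. The value of type 2 dendritic cells came from 37 UMIs in 4 cells, nearly all of it in control replicate 3 at 6.47 UPM. In 7 of the 23 classes, namely arterial, venous and lymphatic endothelium, natural killer cells, nonclassical monocytes, neutrophils and peribronchial fibroblasts, the 3 controls held no Cdkn2a UMI at all. In venous endothelium 0 of 1865 cells allows a level of up to 0.0940 UPM, counting error alone. Aerocytes made 4.19% ± 1.27 of the control UMIs and 68.8% ± 10.6 of the control Cdkn2a UMIs.

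Within control aerocytes Cdkn2a was patchy. A Cdkn2a UMI was found in 295 of 1729 cells (17.1%), and 137 of those 295 held 3 or more, a mean of 4.19 UMIs per positive cell. For Cdkn2b in the same cells 1333 of 1729 (77.1%) were positive with a mean of 3.51 UMIs. Most aerocytes thus had Cdkn2b counted and a minority had Cdkn2a counted, at a similar number of molecules per positive cell.

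Cdkn2b stood at 189, 206 and 200 UPM in control alveolar type 1 cells, a mean of 198 ± 8.21 (SD, n = 3). Aerocytes followed at 153, 133 and 140 UPM (142 ± 10.3), below every alveolar type 1 library. Ciliated cells followed at 19.3 ± 3.53 UPM, apart from the class above and from alveolar type 2 cells (6.48 ± 0.808) below. The other 19 classes were under 5 UPM on average. Control aerocytes were more numerous than alveolar type 1 cells (1729 against 372) and had more UMIs per cell (medians of 20790 against 1916). They held 61.8% ± 3.07 of the Cdkn2b UMIs and alveolar type 1 cells 10.8% ± 2.42.

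Cdkn2c stood at 129, 117 and 119 UPM in control alveolar fibroblasts, a mean of 122 ± 6.15 (SD, n = 3). These stromal cells of the alveolar wall made 24.1% ± 5.44 of control UMIs and 73.3% ± 4.08 of the Cdkn2c UMIs, and 7033 of 9624 (73.1%) had a Cdkn2c UMI. Smooth muscle (29.5 ± 6.19), natural killer cells (23.7 ± 1.12), adventitial fibroblasts (22.6 ± 1.92) and venous endothelium (20.7 ± 2.16) came next and overlapped each other in sequence. Peribronchial fibroblasts had 9.52 ± 0.845 UPM, so Cdkn2c differed widely among the 3 fibroblast classes.

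Cdkn2d stood at 228, 185 and 172 UPM in control neutrophils, a mean of 195 ± 29.2 (SD, n = 3). Classical monocytes (98.1 ± 19.3) and type 2 dendritic cells (88.0 ± 7.31) followed and overlapped, and natural killer cells (70.7 ± 10.0) came below them. It was the most widely counted member, with a UMI in a median of 31.6% of control cells over the 23 classes, against 16.2% for Cdkn2c, 2.96% for Cdkn2b and 0.590% for Cdkn2a. Its lowest means were 7.02 ± 2.25 UPM in aerocytes, which led for Cdkn2a, and 7.79 ± 1.69 in alveolar type 2 cells. Both overlapped lymphatic endothelium (9.55 ± 0.905).

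**Figure D1:**
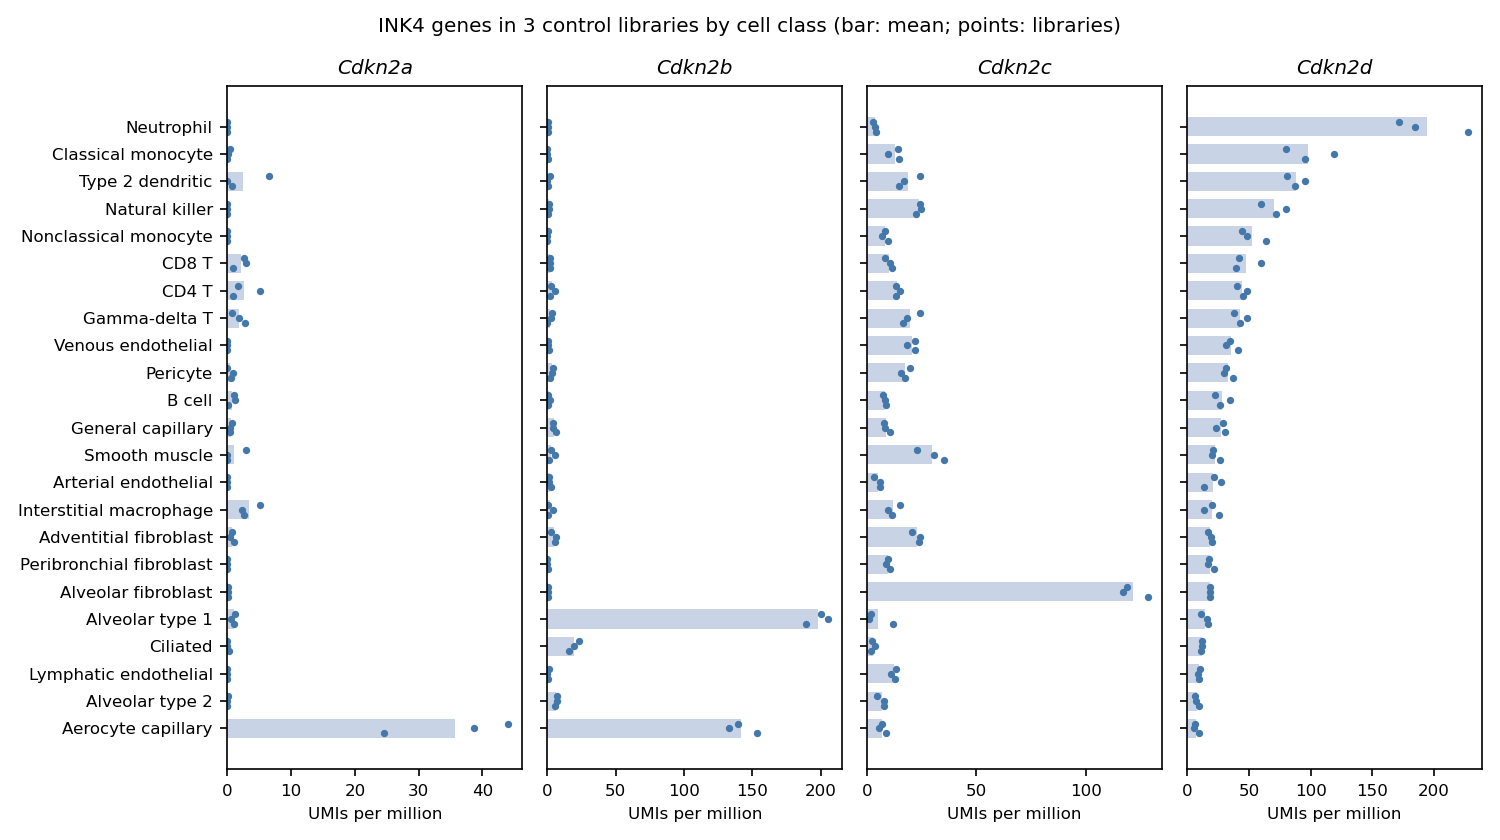
Levels of the 4 INK4 genes in the 3 control libraries by cell class, in UPM on linear axes that differ between panels, with classes ordered by Cdkn2d; bars are means and points are libraries. Aerocytes lead for Cdkn2a at 35.8, alveolar type 1 cells and aerocytes for Cdkn2b at 198 and 142, alveolar fibroblasts for Cdkn2c at 122 and neutrophils for Cdkn2d at 195.

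By a fixed rule, the 3 genes whose control levels over the 23 classes were most like each member by Spearman correlation (among genes with a mean of at least 5 UPM) were found. For Cdkn2d these were Arhgap26 (rho 0.88), Fxyd5 (0.86) and Irf7 (0.85), all highest in neutrophils or classical monocytes. For Cdkn2c they were Elk1 (0.79), Ampd2 (0.76) and Ptprs (0.75), of which Ptprs, a receptor phosphatase, was also highest in alveolar fibroblasts at 156 UPM. For Cdkn2b they were Chmp4c (0.78), Cdpf1 (0.76) and Dolpp1 (0.74), and for Cdkn2a they included Dmac1 (0.72) and Gfer (0.68). Neither of these was highest in aerocytes, and the order of the many Cdkn2a classes near 0 carries little information. Between members, rho was 0.50 for Cdkn2a and Cdkn2b and -0.48 for Cdkn2b and Cdkn2d over the 23 classes. These are descriptions over classes that share the same 3 libraries.

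Between the groups Cdkn2a was the only member with calls, and its level was higher under the p16-DTR label, in cell types where the controls had almost none. Over all retained cells it stood at 1.20, 2.60 and 2.82 UPM in controls, and the libraries labelled p16-DTR had 6.77, 8.46 and 7.19 UPM. The 3 libraries labelled p16-DTR were all above the controls, a separation in that direction seen in 8.47% of the 21413 genes tested. The log2 fold change was 1.82 (SE 0.31), with an adjusted p of 0.134 by edgeR's quasi-likelihood test with Benjamini-Hochberg adjustment, which does not pass 0.05. By that test 0.0% of genes were called over all cells in either direction, although 4919 had an unadjusted p under 0.05. DESeq2 called Cdkn2a over all cells with an adjusted p of 1.68e-06, as it did 5.95% of genes in that direction. With the share of each of the 23 classes held alike in every library, the log2 ratio was 1.87. This measure used the 62848 cells of those classes out of 85386 retained, so it differs from the sum over all cells in its cells too. In the sum over all cells, more cells of a class and more Cdkn2a RNA per cell cannot be told apart. Holding class shares alike removes differences in the shares of the 23 classes and not differences within a class.

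**Figure D2:**
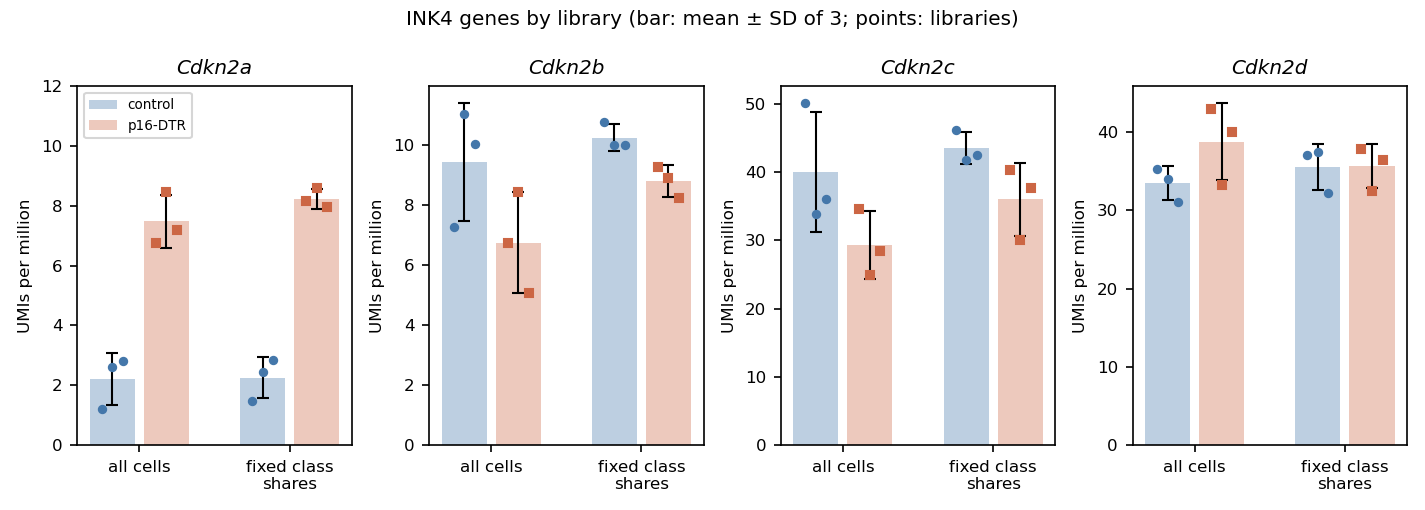
Levels of the 4 INK4 genes in each library, in UPM, over all retained cells and with class shares held alike; bars are means with SD of 3 libraries and points are libraries. The libraries labelled p16-DTR lie above the controls for Cdkn2a on both measures, at 6.77 to 8.46 against 1.20 to 2.82 over all cells, and overlap them for the other members over all cells. With class shares held alike the libraries labelled p16-DTR lie below the controls without overlap for Cdkn2b (8.24 to 9.28 against 9.99 to 10.8) and Cdkn2c (30.1 to 40.3 against 41.8 to 46.2). The share of all genes separated on that measure was not counted.

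Within classes, mean Cdkn2a was above the control mean in 23 of 23 classes, and in 19 of them the groups did not overlap. Among the 16 classes where its counts allowed a fit this was so in 13, against 7.79% of all fitted gene and class pairs separated in that direction. The median over classes was 0.448 UPM in controls and 5.40 UPM under the p16-DTR label. Of these 16 classes 9 were called higher and 0 lower, against 0.286% of all gene and class tests called higher and 0.405% lower. DESeq2 called it in 8 classes, against 0.957% of tests higher. The 9 were alveolar fibroblasts, general capillary cells, venous and lymphatic endothelium, ciliated cells, B cells, CD4 T cells, CD8 T cells and natural killer cells, that is stroma, endothelium, epithelium and lymphocytes, and in these 9 classes 0.468% of tests were called higher. The filter on low counts needs a class in which 1 group reaches a minimum, so a class with empty controls enters only if the other group is high. Among the 9 this holds for natural killer cells and for venous and lymphatic endothelium, where the direction was fixed by entry. Without that filter all 23 classes entered and 16 were called higher, against 1.06% of gene and class tests.

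In the libraries labelled p16-DTR the highest mean Cdkn2a levels outside aerocytes were in T cells and B cells. In CD8 T cells it stood at 0.841, 2.89 and 2.59 UPM in controls and at 16.6, 20.8 and 17.3 UPM under the p16-DTR label, with no overlap. This is a log2 fold change of 3.05 (SE 0.28, edgeR adjusted p = 0.0153). By edgeR Cdkn2a was the only gene called in CD8 T cells, where 0.00849% of 11775 genes were called higher and 0.0% lower, while DESeq2 called 32 genes higher and 55 lower.

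In B cells it stood at 13.6, 18.9 and 15.4 UPM against 0.0809, 1.13 and 1.06 UPM in controls, again without overlap and with a log2 fold change of 4.39 (SE 0.39, edgeR adjusted p = 0.0173). Here too it was the only gene that edgeR called higher, 0.00803% of the 12460 tested, beside 1 other gene called lower, while DESeq2 called 110 higher and 31 lower. CD4 T cells followed the same order with a log2 fold change of 2.52 (SE 0.42, edgeR adjusted p = 0.0389), at 13.3 to 16.8 UPM against 0.850 to 5.12 UPM, where 0.229% of genes were called higher. Natural killer cells had 6.31, 14.1 and 9.0 UPM against no UMI in any of 486 control cells (edgeR adjusted p = 0.00192), in a class with 0.484% of genes called higher. Their mean was 22.9-fold above a floor of 3 counts over the control group. With empty controls Cdkn2a entered this fit only through the libraries labelled p16-DTR, so its direction was fixed by entry.

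In alveolar fibroblasts, the class with most cells, Cdkn2a stood at 5.85, 6.12 and 4.21 UPM against 0.0216, 0.148 and 0.151 UPM. A UMI was found in 538 of 7266 cells labelled p16-DTR and in 15 of 9624 control cells. Its log2 fold change was 5.85 (SE 0.42, edgeR adjusted p = 0.0113), where 0.0615% of genes were called higher. This class held 0.956% ± 0.353 of the control Cdkn2a UMIs and 14.5% ± 4.45 of those in the libraries labelled p16-DTR, while the aerocyte share was 68.8% ± 10.6 and 18.1% ± 2.29.

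Among endothelial classes, general capillary cells had 4.16, 4.65 and 3.08 UPM against 0.389, 0.408 and 0.744 UPM, a log2 fold change of 2.93 (SE 0.30, edgeR adjusted p = 0.00953). Venous endothelium (2.95 to 3.60 UPM, edgeR adjusted p = 0.00298) and lymphatic endothelium (5.41 to 6.08 UPM, edgeR adjusted p = 0.0158) had controls without a UMI. Their means were 35.5-fold and 16.3-fold above a floor of 3 counts over the controls. Both entered the fit only through the libraries labelled p16-DTR, so the direction was fixed by entry. Ciliated cells of the airway had 4.81 to 6.72 UPM against 1 UMI in all controls (edgeR adjusted p = 0.0163). Among all genes tested, 1.0% were called higher in general capillary cells, 2.18% in venous endothelium, 0.143% in lymphatic endothelium and 0.0164% in ciliated cells.

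A large cluster of 8622 cells led by Ntrk2, Sox17 and Epha4, whose markers gave it no name, had a Cdkn2a log2 fold change of 3.22 (SE 0.34, edgeR adjusted p = 0.00843), with 1.15% of genes called higher. Calls in general capillary cells, natural killer cells and venous endothelium held in each of 6 fits with 1 library left out. Without control replicate 3, 3 of the 9 calls were made in all, and over the 6 fits alveolar fibroblasts were called in 5, B cells, CD8 T cells and lymphatic endothelium in 3, ciliated cells in 2 and CD4 T cells in 1. Nonclassical monocytes were not called (edgeR adjusted p = 0.129) at 3.01 to 6.46 UPM against controls without a UMI.

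**Figure D3:**
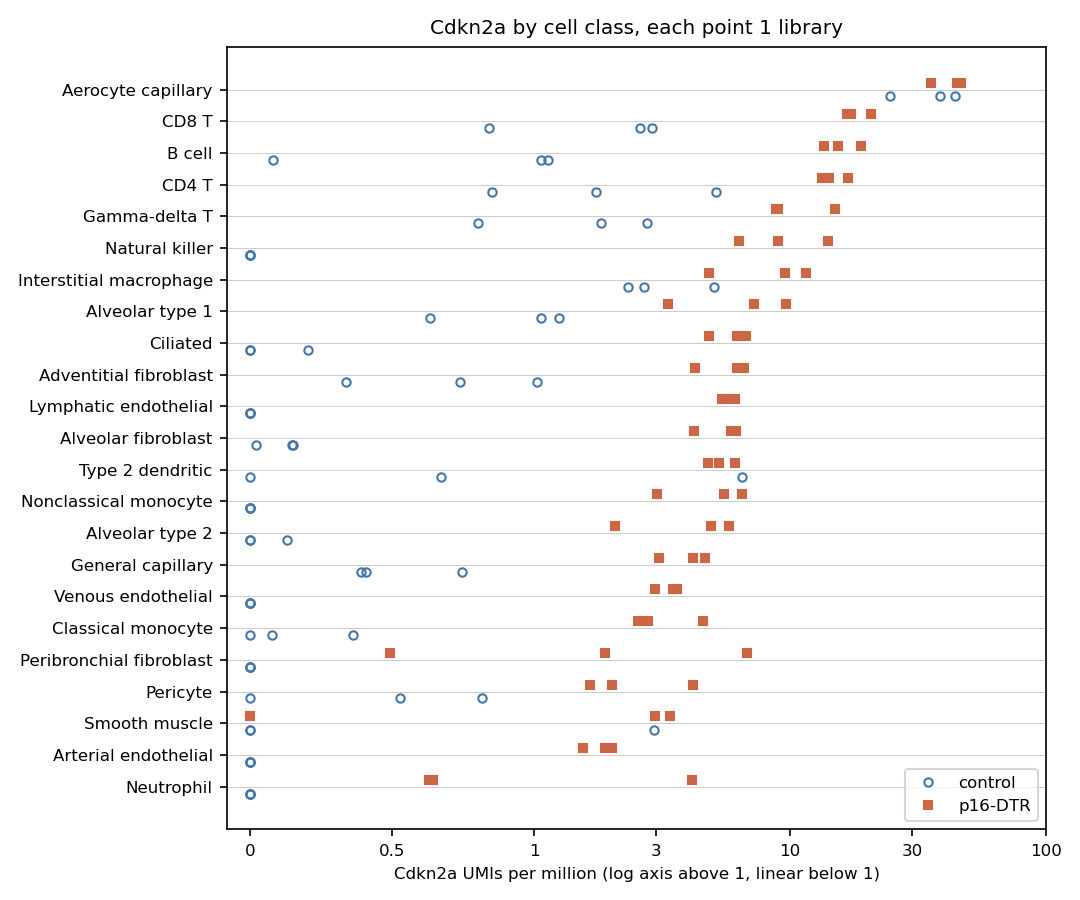
Cdkn2a in UPM in each library (points) by cell class, ordered by the mean of the libraries labelled p16-DTR; the axis is logarithmic above 1 and linear below 1. The libraries labelled p16-DTR (squares) lie above the controls (circles) without overlap in 19 of 23 classes, and the groups overlap in aerocytes, at 35.6 to 46.4 against 24.6 to 44.0.

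In aerocytes, where the controls were highest, the groups did not part. Cdkn2a stood there at 44.9, 35.6 and 46.4 UPM in the libraries labelled p16-DTR against 24.6, 38.7 and 44.0 UPM, and the groups overlapped, as they did in interstitial macrophages, type 2 dendritic cells and smooth muscle. In aerocytes the log2 fold change was 0.24 (SE 0.18, edgeR adjusted p = 0.542). The difference of the group effect between aerocytes and the other named classes, tested directly as an interaction with library as a block, was -3.01 (SE 0.18, edgeR adjusted p = 2.18e-06), and 0.373% of 19857 genes were called in that fit in either direction. It was called in each of 6 fits with 1 library left out.

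The linear scale was looked at as well. The aerocyte mean differed by 6.54 UPM (SE 6.72) between the groups, the 6th largest of the 23 class differences, which ran from 1.14 UPM in smooth muscle to 16.1 UPM in CD8 T cells. The aerocyte level minus the median level of the other 22 classes was 35.7 ± 9.96 UPM in controls and 37.1 ± 5.99 UPM under the p16-DTR label, a difference of 1.42 UPM (two-sided exact permutation p = 0.8, n = 3 a group, smallest possible p 0.1). The other classes stood at a median of 5.24 UPM against 0.115. On a ratio scale aerocytes therefore differed from the other classes in their response. On an additive scale the exact test could not have reached 0.05 with 3 libraries a group, so it leaves the question undecided.

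By the same interaction test 5 further classes had a larger Cdkn2a group effect than the other classes combined, a sum that includes aerocytes. They were natural killer cells (edgeR adjusted p = 0.00164), nonclassical monocytes (0.0127), B cells (0.0229), venous endothelium (0.0265) and alveolar fibroblasts (0.0498). The size was 2.89 (SE 0.32) on the log2 scale in B cells and 4.44 (SE 0.38) in alveolar fibroblasts; the other 3 have empty controls and their fitted sizes are not given. With 1 library left out, the difference was called in 0 of 6 fits for alveolar fibroblasts (adjusted p from 0.0642 to 0.215), in 3 for B cells (lost without p16-DTR replicate 1, 2 or 3), in 4 for venous endothelium (lost without p16-DTR replicate 3 or control replicate 3), in 5 for natural killer cells (lost without control replicate 3) and in 6 for nonclassical monocytes. The share of genes called in either direction was 1.49% for natural killer cells, 1.03% for nonclassical monocytes, 0.0449% for B cells, 0.548% for venous endothelium and 0.00976% for alveolar fibroblasts. Over all 23 such fits 0.277% of gene and class tests were called in either direction. Cdkn2b, Cdkn2c and Cdkn2d were called in 0 of these 23 fits.

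Mean shares of Cdkn2a-positive cells were higher under the p16-DTR label in 23 of 23 classes after thinning, some of them from single cells. Positive cells in controls and under the p16-DTR label were 1 of 393 and 1 of 197 in pericytes. They were 1 of 262 and 1 of 171 in smooth muscle, and 0 of 364 and 1 of 268 in arterial endothelium. In aerocytes the difference was 0.04 points, with 152 of 1518 and 111 of 1166 cells positive. In share, but not in level, the groups overlapped in ciliated cells, alveolar type 1 and type 2 cells, arterial endothelium, pericytes and peribronchial fibroblasts. In interstitial macrophages and type 2 dendritic cells they overlapped in level and not in share. After each cell was thinned to 5000 UMIs, with 5253 control cells and 5138 cells labelled p16-DTR left out as shallower, the share of B cells with a Cdkn2a UMI was 0.252% ± 0.221 (SD, n = 3) in controls and 6.39% ± 0.912 under the p16-DTR label. Without thinning the shares were 0.591% and 14.9%. In CD8 T cells the thinned shares were 0.389% ± 0.367 in controls and 8.17% ± 1.12 under the p16-DTR label (unthinned 2.72% and 21.4%). In alveolar fibroblasts they were 0.0381% ± 0.0126 and 2.42% ± 0.761 (unthinned 0.186% and 7.36%), and in aerocytes 9.64% ± 2.85 and 9.68% ± 0.739, in the same order. The smallest adjusted p over 92 exact permutation tests was 0.418, since 3 libraries against 3 cannot go below 0.1 before adjustment.

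Neutrophils, which had no control Cdkn2a UMI, were among the classes with few positive cells. Their thinned share was 0.825% ± 0.644 under the p16-DTR label (0.441%, 0.464% and 1.57%, the last in replicate 3), at median depths of 9503 UMIs per cell against 9016 in controls, where 0 of 1143 cells allows a share of cells with a UMI of up to 0.262%, which is no limit on cells expressing the gene. B cells at median depths of 13364 and 12057 UMIs had shares 6.39% and 0.252%. The thinned share in the libraries labelled p16-DTR thus ran from 0.358% in arterial endothelium, from 1 positive cell of 268, to 9.68% in aerocytes. The part of RNA free in the droplets in these levels was not tested. A summed level of aerocyte marker genes does not separate such RNA from expression by the cells themselves. In B cells the summed level of 10 aerocyte marker genes was 16.3 to 16.8 UPM in controls and 13.2 to 15.2 UPM under the p16-DTR label. In alveolar fibroblasts it was 667.5 to 705 and 596 to 683 UPM, and in neutrophils 18.0 to 28.4 and 12.1 to 19.6 UPM, in the same order. In alveolar type 1 cells it was 3924 to 3966 and 3839 to 4174 UPM, against 14770 to 15020 UPM in control aerocytes. Cdkn2b, which is more abundant than Cdkn2a in aerocytes, was at 0.842 ± 0.401 UPM in B cells labelled p16-DTR and at 0.903 ± 0.868 UPM in control B cells.

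In the libraries labelled p16-DTR the number of Cdkn2a molecules per positive cell was lower in the other classes than in aerocytes. There positive B cells held a mean of 1.59 Cdkn2a UMIs, positive CD8 T cells 1.56 and positive alveolar fibroblasts 1.56, against 4.01 in positive aerocytes. In positive control aerocytes it was 4.19. Cells with 3 or more UMIs were 37.0% of positive aerocytes and 11.5% of positive B cells in those libraries, and 46.4% of positive control aerocytes. Positive control cells of the other classes were few, at 17 B cells, 31 CD8 T cells and 15 alveolar fibroblasts. They held means of 1.765, 1.42 and 1.2 Cdkn2a UMIs, in the same order. In these 3 classes positive cells thus held few molecules in both groups. The higher levels in the libraries labelled p16-DTR came with more positive cells.

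Cdkn2b was not called in any class. In aerocytes it stood at 124, 129 and 111 UPM in the libraries labelled p16-DTR against 153, 133 and 140 in controls, below them without overlap. The log2 fold change was -0.19 (SE 0.07, edgeR adjusted p = 0.246, unadjusted p = 0.0277), and 14.9% of genes in aerocytes were separated in that direction. In alveolar type 1 cells it stood at 138, 155 and 180 UPM against 189, 206 and 200, also below, as were 9.33% of genes there, with a log2 fold change of -0.30 (SE 0.14, edgeR adjusted p = 0.644). In these cells, with median depths of 1484 UMIs under the p16-DTR label and 1916 in controls, the summed level of 10 alveolar fibroblast markers was 4332 to 5528 UPM against 5727 to 6633, also without overlap, and its part in the difference was not tested. Over all cells the groups overlapped, with a log2 fold change of -0.43 (SE 0.22, edgeR adjusted p = 0.280). With class shares held alike the log2 ratio was -0.22, without overlap, and the share of all genes so separated was not counted. Aerocytes made 3.33% ± 1.22 of UMIs under the p16-DTR label against 4.19% ± 1.27.

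Of 11 classes where Cdkn2b could be fitted, 0 were called, 1 had an unadjusted p under 0.05, and DESeq2 called 0. Of all gene and class tests 0.286% were called higher and 0.405% lower by edgeR, so 0 calls in 11 is near that share. The fitted values ran from -0.69 to 0.48 with a median of -0.08 on the log2 scale. Cdkn2a and Cdkn2b, 11646 bases apart, had 9 of 16 and 0 of 11 fitted classes called, and the 2 genes were not compared by a test.

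Cdkn2c had its lowest unadjusted p values in its leading class and in CD8 T cells. In alveolar fibroblasts it stood at 110, 77.9 and 98.2 UPM in the libraries labelled p16-DTR against 129, 117 and 119, below without overlap, as were 16% of genes in that class. The log2 fold change was -0.34 (SE 0.12, edgeR adjusted p = 0.156, unadjusted p = 0.0207). In CD8 T cells it stood at 13.9, 13.5 and 12.6 UPM against 11.2, 10.4 and 7.87, above without overlap, as were 6.6% of genes there, with a log2 fold change of 0.47 (SE 0.17, edgeR adjusted p = 0.443, unadjusted p = 0.0220). In CD4 T cells it was lower without overlap, at 10.6 to 12.1 UPM against 12.91 to 15.03 (log2 fold change -0.27, edgeR adjusted p = 0.441), as were 8.45% of genes there. None of the 3 passed the test. Over all cells the log2 fold change was -0.40 (SE 0.19, edgeR adjusted p = 0.262). With class shares held alike the log2 ratio was -0.27, without overlap of the groups (two-sided exact permutation p = 0.1, the smallest possible). The share of all genes separated on that measure was not counted. Alveolar fibroblasts made 19.7% ± 2.33 of UMIs against 24.1% ± 5.44 in controls. Of 22 classes fitted 0 were called by edgeR or DESeq2 and 2 had an unadjusted p under 0.05, with a median log2 fold change of -0.04. By edgeR 0.286% of all gene and class tests were called higher and 0.405% lower.

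Cdkn2d was not called in any class. In neutrophils it stood at 238, 147 and 188 UPM in the libraries labelled p16-DTR against 228, 185 and 172, and in classical monocytes at 112, 89.8 and 104 against 95.2, 119 and 80.5, with overlap in both. It was higher without overlap in 2 of 23 classes, alveolar fibroblasts (19.0 to 21.3 against 18.1 to 18.7 UPM, edgeR adjusted p = 0.270) and peribronchial fibroblasts (21.8 to 22.7 against 16.9 to 21.4 UPM, edgeR adjusted p = 0.412), beside the 7.79% of all gene and class pairs separated in that direction. Over 23 classes fitted, 0 were called by edgeR or DESeq2 and 0 had an unadjusted p under 0.05. Beside this, edgeR called 0.286% of all gene and class tests higher and 0.405% lower. The fitted log2 fold changes ran from -0.42 to 0.33 with a median of 0.00062 and a median SE of 0.17. Over all cells the log2 fold change was 0.26 (SE 0.11, edgeR adjusted p = 0.225), and with class shares held alike the log2 ratio was 0.0016. Neutrophils made 1.61% ± 0.522 of UMIs in controls and 2.46% ± 0.687 under the p16-DTR label.

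**Figure D4:**
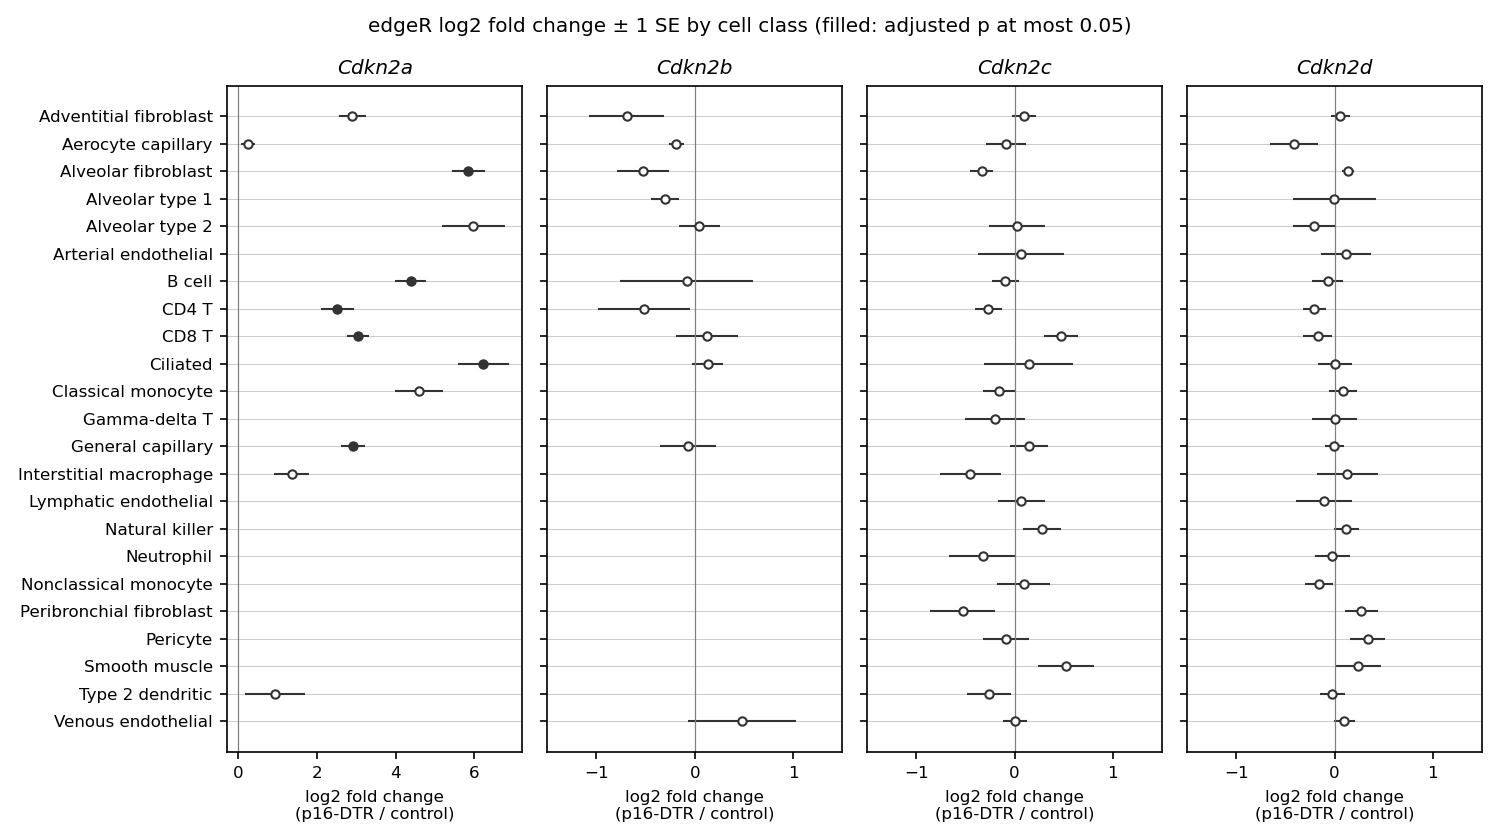
Log2 fold change (libraries labelled p16-DTR over control) of each INK4 gene by cell class from edgeR, with bars of 1 SE on each side; filled points have an adjusted p of at most 0.05, and Cdkn2a classes whose controls held no UMI are left out. Cdkn2a has its own axis, with aerocytes at 0.24 and alveolar fibroblasts at 5.85, while no Cdkn2b, Cdkn2c or Cdkn2d point is filled.

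Cycling cells were compared with the other cells of the same library. Cells with at least 1 UMI of Mki67 and 1 of Top2a, genes of dividing cells, numbered 87 to 170 per library. Cdkn2c stood at 41.2 to 74.6 UPM in cycling cells and at 23.7 to 50.0 in the other cells, with a mean log2 ratio of 0.80 ± 0.51 (SD, n = 6), higher in 6 of 6 libraries. Cdkn2d was also higher in 6 of 6, with a mean log2 ratio of 1.12 ± 0.21, and so was Cdkn2a, with 1.67 ± 0.59. Cdkn2b was lower in 6 of 6, with -2.38 ± 1.13. Each had a two-sided exact sign permutation p of 0.03125, the smallest that 6 libraries can give, and the same value after adjustment over the 4 genes. The share of all genes with 1 direction in 6 of 6 libraries was not counted.

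Cycling cells came from other classes than the rest. A further comparison kept only the cycling cells of the compared classes and set them against other cells of the same classes. Each class was weighted by its number of cycling cells. The cycling cells thus differed from those above, with means of 24.5 UPM for Cdkn2c and 54.7 for Cdkn2d, against 59.1 and 76.3. A change from the ratios above therefore cannot be put down to matching of classes alone. Cdkn2c had a mean log2 ratio of 0.90 ± 0.45, higher in 6 of 6 libraries (exact permutation p = 0.03125, adjusted 0.0938 over 3 genes). Cdkn2d had 0.05 ± 0.29 and was higher in 3 of 6 (exact permutation p = 0.75), and Cdkn2b had -0.85 ± 1.27 (exact permutation p = 0.219). No ratio could be formed for Cdkn2a, because the cycling cells of 1 library held none in these classes, and its level was higher in cycling cells in 4 of 6 libraries. The full set of cycling cells was also deeper than the other cells, with medians of 29908 to 37099 UMIs against 16587 to 17850.

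**Figure D5:**
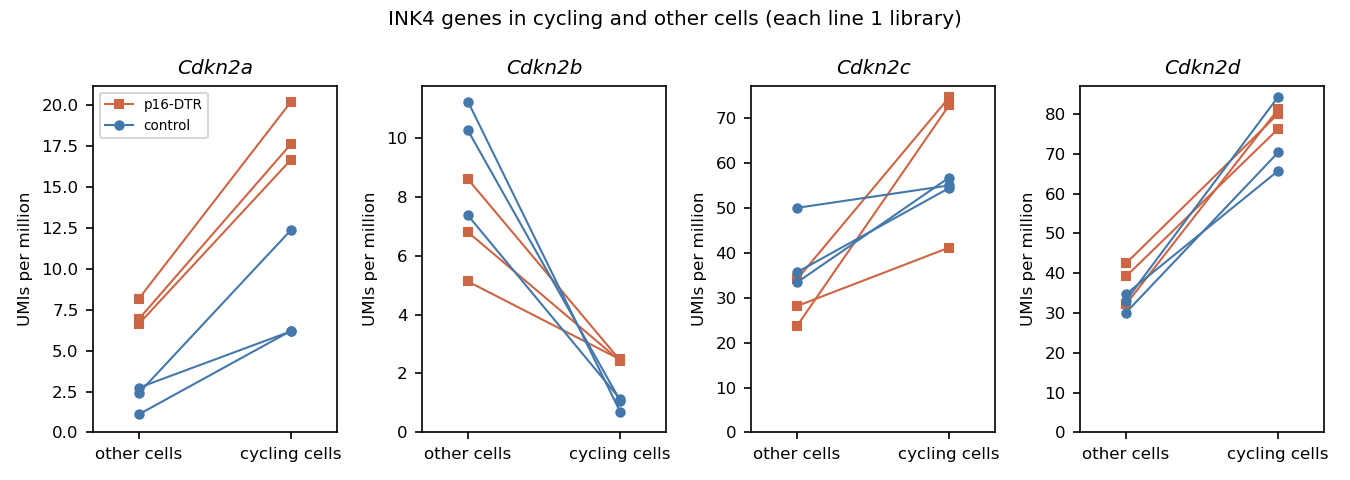
Levels of the 4 INK4 genes in cycling cells and in the other cells of the same library, in UPM on linear axes that differ between panels; each line is 1 library. The lines rise in 6 of 6 libraries for Cdkn2a, Cdkn2c and Cdkn2d and fall in 6 of 6 for Cdkn2b.

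Cells holding UMIs of a pair of members were counted after thinning to 5000 UMIs. In control aerocytes 99 of 1518 cells held both Cdkn2a and Cdkn2b, where the product of the shares in each library gives 72.7 cells, a ratio of 1.36. In aerocytes labelled p16-DTR 54 of 1166 held both against 44.6 (ratio 1.21). For Cdkn2c and Cdkn2d in alveolar fibroblasts 307 control cells held both against 278.5 (ratio 1.10). Cdkn2a and Cdkn2c in alveolar fibroblasts labelled p16-DTR had 48 cells against 50.6 (ratio 0.948). Cells of a library are not replicates, and these ratios are given without a test.

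Among the partners of the INK4 proteins, D cyclins rose in a few classes and the kinases were not called. Of CDK4/6 and the D cyclins, 5 genes, 0 were called over all cells (2 had an unadjusted p under 0.05), and in the classes 6 of 112 tests were called higher and 0 lower, in Ccnd1, Ccnd2 and Ccnd3, beside 0.286% of all gene and class tests called higher. With 1 library left out 2 to 5 were called higher: 2 when control replicate 1 was the one left out, and 3 for control replicates 2 and 3 and for p16-DTR replicate 3. In aerocytes Ccnd3 rose from 150.5 ± 5.11 to 194 ± 6.89 UPM (log2 fold change 0.40, edgeR adjusted p = 0.0136), and Ccnd1 and Ccnd2 were called there too, with log2 fold changes of 0.47 and 0.81, in a class where 0.558% of genes were called higher and 0.483% lower. In general capillary cells Ccnd3 rose from 228 ± 57.2 to 418 ± 36.9 UPM (log2 fold change 0.91, edgeR adjusted p = 0.0371). Cdk4 and Cdk6, the kinases themselves, were not called in any class.

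Of 13 genes for RB, its relatives and the E2F factors, 0 were called over all cells and 1 of 233 class tests was called, E2f3 in general capillary cells (log2 fold change 0.42, edgeR adjusted p = 0.0408), a class with 1.0% of genes called higher. Of 20 E2F target genes, 0 were called over all cells, 0 of 293 class tests were higher and 3 were lower. These were Mcm4, a replication helicase subunit, in general capillary cells (-0.44) and venous endothelium (-0.52), and Rrm1, a subunit of ribonucleotide reductase, in venous endothelium (-0.43). Of all genes 1.51% were called lower in general capillary cells and 3.15% in venous endothelium. Of 10 genes of the ARF, MDM2 and p53 arm, 0 of 225 class tests were called, and 0 were called over all cells. Of the 10, 7 had an unadjusted p under 0.05 and a higher value over all cells, among them Cdkn1a, the p21 inhibitor (log2 fold change 0.40, edgeR adjusted p = 0.175), and Bax, which promotes apoptosis (0.30, edgeR adjusted p = 0.134). Of all genes over all cells, 10.5% had an unadjusted p under 0.05 and a higher value.

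Of 26 known regulators of INK4 transcription, such as Polycomb proteins, 0 were called over all cells, and 3 of 572 class tests were called higher and 10 lower, beside 0.286% and 0.405% of all tests. With 1 library left out 0 to 3 were called higher and 1 to 11 lower, with 1 lower call without p16-DTR replicate 3, 3 without control replicate 1 and 5 without control replicate 3. Kdm6b, a demethylase that removes the repressive H3K27 mark, fell in 4 classes: arterial and venous endothelium, general capillary cells and natural killer cells (log2 fold changes of -0.81 to -0.52). Junb, an AP-1 factor, fell in 4 endothelial classes (-0.97 to -0.58). The share of all genes called lower was 0.21% in arterial, 3.15% in venous and 0.286% in lymphatic endothelium, 1.51% in general capillary cells and 0.926% in natural killer cells. Id1, an inhibitor of Ets and basic helix-loop-helix factors, rose in 2 classes. In aerocytes Cbx7, a Polycomb reader of H3K27 methylation, fell from 37.2 ± 1.44 to 27.7 ± 0.593 UPM (log2 fold change -0.39, edgeR adjusted p = 0.0352), a class where Cdkn2a was not called.

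Genes induced by tissue dissociation differed between the groups in many of these classes. The summed level of 10 such genes over all cells was 6253 to 8174 UPM in controls and 5587 to 6053 UPM under the p16-DTR label. Of the 23 classes it was lower without overlap under that label in 10, higher without overlap in 3 (alveolar type 1 cells, classical monocytes and type 2 dendritic cells) and overlapping in 10. How often sums of other genes separate in this way was not counted. Of the 9 classes with Cdkn2a called it was lower in 6, among them alveolar fibroblasts (7436 to 8482 against 8543 to 11010), CD8 T cells (1791 to 2069 against 2106 to 2294) and venous endothelium (5409 to 7211 against 8504 to 10330). It overlapped in the other 3, which were B cells, CD4 T cells and natural killer cells. Of 224 class tests 3 were called higher and 10 lower, beside 0.286% and 0.405% of all tests, the latter led by Egr1 and Junb in 4 endothelial classes each. In natural killer cells, where Kdm6b was called lower, Fos (0.62) and Fosb (0.97) were called higher. Junb belongs to both lists. The part of dissociation in the Cdkn2a and Kdm6b differences was not tested.

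Of the 12 other protein-coding genes that lie among the 2 nearest on each side of a member, Slc44a2, beside Cdkn2d, was called in 1 class and the others in 0. Mtap, 93390 bases from Cdkn2a, had a log2 fold change of -0.04 over all cells (edgeR adjusted p = 0.612) and 0 calls in 22 classes. Next to Cdkn2c, Faf1 had 0.02 and 0 calls in 23 classes. Dmrta1, on the far side of Cdkn2b, could be fitted in 2 classes, and Ifne and Zfp352 in 0.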

How the data were processed

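The authors deposited, for each library, whole-number UMI counts by gene and barcode. Cell Ranger 8.0.1 and mm10 are named in the submitters' processing notes; the annotation and cell calling settings are not given in the sources used here. Barcodes with at least 300 genes, 500 UMIs and at most 15% mitochondrial UMIs were kept, and predicted doublets were removed (simulated, 0.4% of cells per 1000 barcodes). Cells were clustered on 2000 variable genes without the 4 members (40 components, 15 neighbours, leidenalg 0.10.2 at resolution 1.5). A cluster was named from its marker genes (at least 3), and each cell of it had to hold at least 2 of the markers, which left 29 of 77 clusters without a name. Each lung sample gave 1 library. The labels number the samples and do not say outright that each is a separate mouse, so p-values measure the spread between these samples.

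Counts were summed per library and class and tested with edgeR 4.0.16 (R 4.3.3; filterByExpr, TMM, quasi-likelihood, group alone, Benjamini-Hochberg over all genes of a class at 0.05). Differences between classes used a class by group term with the library as a block. Lone measures used exact permutation over libraries. DESeq2 1.42.0 was an alternative. The fits were tested on simulated data. Floors of 3 counts cover counting error only. Positions are from GENCODE M21 (GRCm38), promoters from RefSeq.

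Genes were named by rule: the 4 members, the 3 genes whose control levels were most like each, up to 4 genes of each list called over all cells and the 2 called in the most classes (3 where tied), and the 2 nearest protein-coding genes on each side. 1 gene that the rule names is not reported here. Id1, Cbx7, Cdkn1a, Bax, Fos, Fosb, Cdk4 and Cdk6 were added after their values were seen. The members and the gene and marker lists were chosen with earlier results of these data known. Replicate numbers did not pair the libraries.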

Additional observations from a re-analysis of the deposited data

Results flagged for a closer look

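The group effect on Cdkn2a differed between cell classes by a test of the difference itself, in each case a class against the other named classes on the log2 scale with edgeR and adjustment over all genes. In aerocytes the effect was smaller than in the other named classes combined (adjusted p = 2.18e-06). Against a sum of other classes that includes aerocytes it was larger in natural killer cells (adjusted p = 0.00164), nonclassical monocytes (adjusted p = 0.0127), B cells (adjusted p = 0.0229), venous endothelium (adjusted p = 0.0265) and alveolar fibroblasts (adjusted p = 0.0498). Aerocytes held 68.8% ± 10.6 of the control Cdkn2a UMIs. On the linear scale the aerocyte level minus the median of the other classes differed by 1.42 UPM (exact permutation p = 0.8, smallest possible 0.1). Over all interaction fits 0.277% of gene and class tests were called in either direction. The control libraries held 0 Cdkn2a UMIs in natural killer cells, nonclassical monocytes and venous endothelium, against 1235 in aerocytes. With 1 library left out the difference was called in 6 of 6 fits in aerocytes and nonclassical monocytes, in 5 in natural killer cells, in 4 in venous endothelium, in 3 in B cells and in 0 in alveolar fibroblasts (adjusted p from 0.0642 to 0.215).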

How the results depend on the processing

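The sign of the 4 members over all cells was the same under every scaling, filter, test and left-out library tried. With class shares held alike, however, the Cdkn2d log2 ratio was only 0.0016. The Cdkn2a log2 fold change ran from 1.52 to 2.02 with 1 library left out (Cdkn2b -0.62 to -0.26, Cdkn2c -0.55 to -0.19, Cdkn2d 0.17 to 0.36), and DESeq2 passed the threshold that edgeR missed (1.82, adjusted p = 1.68e-06); it called 1275 genes higher and 1289 lower where edgeR called 0. Replicate numbers were tested as a block although they do not pair the libraries (correlations of same-numbered libraries 0.129, 1.46e-05 and 0.0996). With the replicate block the log2 fold changes over all cells were 1.90 for Cdkn2a, -0.44 for Cdkn2b, -0.39 for Cdkn2c and 0.26 for Cdkn2d, none of them called, and 10 classes were called for Cdkn2a and 0 for the others.

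Classes with Cdkn2a called higher numbered 9, 16 with no filter on low counts, and 3 to 7 with 1 library left out, the 3 without control replicate 3. Classes whose Cdkn2a group effect differed from the rest numbered 6, and 3 to 5 with 1 library left out, the 3 without p16-DTR replicate 3 or control replicate 3. For Cdkn2c and for Cdkn2d this number was 0 to 1, the 1 being natural killer cells and aerocytes without control replicate 2. On the linear scale the aerocyte level minus the median of the other classes differed by 1.42 UPM, an alternative chosen after seeing the data. It uses a median and not the sum of the other classes, and its sign is not determined (exact permutation p = 0.8, smallest possible 0.1). The median class difference in the share of Cdkn2a-positive cells was 1.77 points, 6.68 with no thinning, 1.37 with thinning to 3000 UMIs, and 1.59 to 1.95 with 1 library left out. In the cycling cells of the 23 compared classes, weighted by class, the log2 ratios were -0.85 for Cdkn2b, 0.90 for Cdkn2c and 0.048 for Cdkn2d. None passed the threshold after adjustment. With doublets kept, Cdkn2b in control alveolar type 1 cells was 187 UPM, and at resolution 0.8 Cdkn2c in control alveolar fibroblasts was 106 UPM. The leading class of each member was the same under the 4 alternative cell sets. The cause of these shifts was not tested. Calls in the gene lists moved more: with 1 library left out the E2F target genes had 0 to 2 lower calls (as reported 3), the RB and E2F factors 0 to 1 higher (as reported 1), the ARF and p53 arm 0 to 1 higher (as reported 0) and the dissociation genes 3 to 14 lower (as reported 10), while DESeq2 called 7, 3, 5 and 31, in the same order. Cdkn2a had no control UMI in 7 classes, so its fitted sizes there are not given.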
